A study of Homo sapiens with 24 samples.

Results

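Metallothioneins are small cysteine-rich proteins that bind zinc, copper and cadmium through clusters of thiolates, and they buffer free zinc and scavenge reactive oxygen species. In humans most of their genes sit side by side on the long arm of chromosome 16, and zinc, through the metal-sensing transcription factor MTF1 acting on metal response elements, glucocorticoids and oxidative stress are known to induce them. In cultured cells MT2A is usually the major form, and several MT1 genes are silent in a given cell type. The genes described here are MT1A, MT1E, MT1F, MT1G, MT1H, MT1M, MT1X and MT2A, chosen by their symbols, 8 of the 57820 genes in the deposited counts, which hold 20 rows of the metallothionein family in all. Only MT2A, MT1E and MT1X were expressed. Both MT2A and MT1X were higher after exposure to mocetinostat in all 4 treatment comparisons (adjusted p under 0.05), by the sample titles. Among all genes tested, 20.2% to 35.8% were higher at that threshold. The MT1X difference in ID3-KO AID-DIvA cells only just passed (edgeR adjusted p = 0.048), with overlapping groups, and was lost without some single libraries. MT1E passed the test in 1 of the 4 by edgeR and in 2 by DESeq2.

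The 24 RNA-seq libraries came from human osteosarcoma cells, 3 biological replicates in each of 8 groups. WT and ID3-KO cells of the AID-DIvA U2OS line, which carries an inducible AsiSI nuclease, were either untreated or exposed to the class I histone deacetylase inhibitor mocetinostat and then left to recover without it. WT and ID3-KO U2OS cells were either untreated or exposed to mocetinostat. The study's methods describe collection before and after recovery without naming the line, and because only the AID-DIvA titles name a recovery, the U2OS libraries were taken here as collected before it. ID3 is an inhibitor of basic helix-loop-helix transcription factors, and the comparisons ask how the inhibitor and the loss of ID3 change expression. The collection stage and the cell line label coincide, as would any difference in library preparation between the lines, so their parts cannot be told apart. In the 12 AID-DIvA libraries the titles and the treatment entry of the labels disagree on which cells were treated. The titles were used here, and every AID-DIvA direction by treatment rests on that choice. So does which AID-DIvA groups are called untreated and which recovered, also where genotypes are compared. Neither the dose of mocetinostat behind these RNA-seq libraries nor whether a knockout line is 1 clone is given in the sources used here, and no induction of AsiSI is stated for these libraries.

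The 8 genes lie within 75998 bases of chromosome 16 (hg19/GRCh37). MT2A (ENSG00000125148.6) occupies chr16:56642111-56643409, MT1E (ENSG00000169715.10) chr16:56659387-56661024 and MT1X (ENSG00000187193.8) chr16:56716336-56718108, all on the plus strand. Each of the 8 genes has 3 coding exons, and every member but MT1G has a coding sequence of 61 codons, of which 20 encode cysteine. MT1G, which alone lies on the minus strand, has 62 codons. Coding sequences of the 3 expressed genes are shown because their likeness bears on how reads can be assigned to each of them. They are the GRCh37 coding exons joined 5′ to 3′ without the stop codon, with the cysteine codons in capitals. For every gene the complete protein-coding GENCODE transcript with the most cysteine codons was taken, also for the codon counts above.
MT2A: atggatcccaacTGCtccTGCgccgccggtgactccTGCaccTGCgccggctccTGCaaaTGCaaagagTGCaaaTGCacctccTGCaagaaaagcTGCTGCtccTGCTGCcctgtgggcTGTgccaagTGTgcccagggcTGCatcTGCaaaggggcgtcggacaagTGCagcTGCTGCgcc
MT1E: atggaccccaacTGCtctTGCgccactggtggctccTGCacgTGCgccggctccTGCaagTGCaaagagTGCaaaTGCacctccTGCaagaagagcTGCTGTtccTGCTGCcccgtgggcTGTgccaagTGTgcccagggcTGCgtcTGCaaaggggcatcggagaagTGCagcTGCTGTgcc
MT1X: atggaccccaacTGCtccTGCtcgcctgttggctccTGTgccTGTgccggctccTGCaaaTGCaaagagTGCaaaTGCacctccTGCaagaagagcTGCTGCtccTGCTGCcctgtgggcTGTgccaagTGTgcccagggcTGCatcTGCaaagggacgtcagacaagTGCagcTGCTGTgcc
Over the 183 bases MT2A and MT1E differed at 14 positions, MT2A and MT1X at 14, and MT1E and MT1X at 17. Across the 21 pairs of members with coding sequences of equal length, identity lay between 88.5% and 94.5%. No run of 100 bases, the length of 1 sequencing read, was shared between the annotated transcripts of MT2A, MT1E or MT1X and those of any other family gene, so a full-length read without mismatches matches 1 of these genes within the family. In 1 other respect the level of MT1X is uncertain: exons 1 and 2 (chr16:56716382-56716480 and chr16:56717077-56717142) are shared on the same strand with a long non-coding RNA gene (ENSG00000259827) that had 0 counts in all 24 libraries. How fragments that overlap both genes were counted is not given in the sources used here, but the 0 counts mean that they were not counted for both. The pseudogene MT1P3, overlapped by EDEM2 on the other strand, had 26 sense-strand counts but 9 from either strand. Fragments that overlap 2 genes were thus left out there. If those in the shared exons were treated alike, the MT1X level is understated.

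RefSeq promoter entries (GRCh38) matched 3 of the 8 members, MT2A, MT1X and MT1H. MT1A, MT1E, MT1F, MT1G and MT1M had no entry. The 250 bases before each start of transcription are shown because 2 of these genes moved with treatment and the third was silent. Capitals mark the core of the metal response element, the site bound by MTF1, searched as TGCACNC or TGCGCNC on both strands. Windows, all on the plus strand, are chr16:56608334-56608583 for MT2A, chr16:56682220-56682469 for MT1X and chr16:56669564-56669813 for MT1H.
MT2A: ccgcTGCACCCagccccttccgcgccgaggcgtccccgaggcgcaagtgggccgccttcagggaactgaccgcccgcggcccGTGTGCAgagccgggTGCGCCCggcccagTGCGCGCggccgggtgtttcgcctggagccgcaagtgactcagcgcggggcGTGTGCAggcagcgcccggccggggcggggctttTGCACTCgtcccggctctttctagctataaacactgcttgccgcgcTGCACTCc
MT1X: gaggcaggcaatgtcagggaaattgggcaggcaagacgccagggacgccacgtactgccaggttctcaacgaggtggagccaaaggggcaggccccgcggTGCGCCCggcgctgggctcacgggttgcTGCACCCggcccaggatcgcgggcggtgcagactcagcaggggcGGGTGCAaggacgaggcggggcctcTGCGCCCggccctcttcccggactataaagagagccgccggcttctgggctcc
MT1H: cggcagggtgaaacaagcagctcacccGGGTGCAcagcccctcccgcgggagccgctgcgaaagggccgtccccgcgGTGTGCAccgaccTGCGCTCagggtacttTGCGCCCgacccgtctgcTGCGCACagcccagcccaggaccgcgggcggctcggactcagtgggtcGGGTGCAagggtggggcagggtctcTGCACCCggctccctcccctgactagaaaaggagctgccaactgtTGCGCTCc
MT2A held 7 cores, MT1X 4 and MT1H 8. Among 35116 RefSeq promoter windows of the same length, 24.8% held at least 1 core, 0.37% at least 4, 0.0313% at least 7 and 0.0171% at least 8. CANNTG is the E box bound by the basic helix-loop-helix factors that ID3 holds back. It occurred 2 times in the MT2A window, 1 time in that of MT1H and 0 times in that of MT1X. Of all windows, 61.8% held at least 1 such match and 28.3% at least 2. GGGCGG, the GC box bound by SP1, occurred 2 times before MT2A, 2 times before MT1X and 1 time before MT1H. At least 1 was held by 42.6% of windows and at least 2 by 24.3%. E boxes were counted 1 time whatever the strand, since the motif is its own reverse complement, and a match is a description of these letters and not a site shown to be bound. MT1H, with the most metal response element cores, was among the silent genes.

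**Figure D1:**
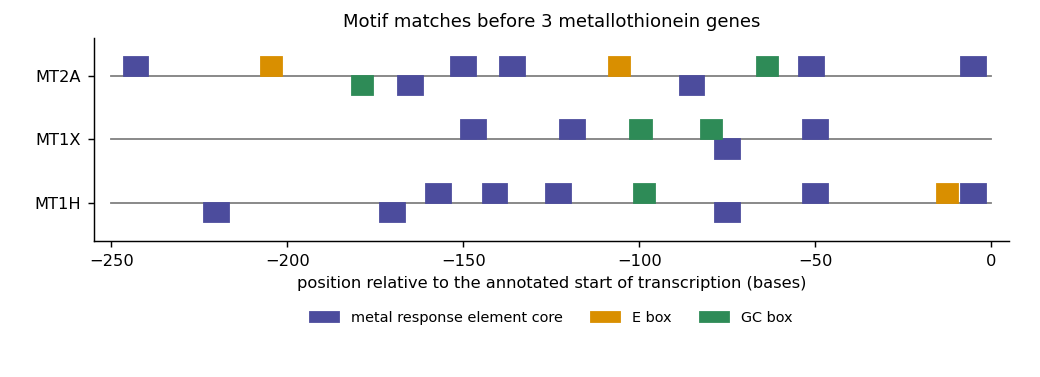
Matches to 3 motifs in the 250 bases before the annotated start of MT2A, MT1X and MT1H, by distance from the start in bases. Boxes above a line lie on the plus strand and those below it on the minus strand, with E boxes drawn above; MT2A holds 7 metal response element cores, MT1X 4 and MT1H 8.

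Library totals lay between 37878751 and 76906266 counts. ID3, the targeted gene, kept reads in the ID3-KO libraries (which part of it is altered is not given in the sources used here), and its mean level was lower there in every state, with log2 fold changes of ID3-KO over WT between -0.56 and -1.21 and edgeR adjusted p between 4.9e-07 and 0.0065. The highest ID3-KO library lay below the lowest WT library within each state. Of the osteoblast lineage markers, COL1A1 (824 to 2528 CPM, counts scaled to a library total of 1000000), SPARC (871 to 1550 CPM) and RUNX2 (11.8 to 47.9 CPM) were present, while SP7 and BGLAP, of mature osteoblasts, did not exceed 0.114 and 0.689 CPM. ALPL was low, at 0.618 to 6.95 CPM. PECAM1 had 0 counts, PTPRC reached 0.407 CPM and EPCAM 10.4 CPM. Of the 5 osteoblast markers tested, 4 fell with treatment in each U2OS genotype, where 22.9% (WT) and 34% (ID3-KO) of all genes tested were called lower. In U2OS cells 3 were lower in ID3-KO than in WT, against 8.63% of genes when untreated and 19% when treated. In AID-DIvA cells treatment raised 1 and lowered 1 in WT and raised 2 and lowered 2 in ID3-KO, where 19.9% to 23.9% of genes were called in each direction. Between AID-DIvA genotypes 1 was higher and 2 were lower in ID3-KO in both states, against 11.1% to 18.6% of genes in each direction. Their part in the metallothionein results was not tested. Replicate 1 of the untreated WT U2OS cells stood apart from replicates 2 and 3, with a chi-square per gene of 92.4 and 82.0 against at most 24.5 in any other pair of replicates. For the metallothionein genes, the fold changes and differences between responses that rest on it are given with and without it. Values of other genes and shares of all genes are given only with it.

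MT2A was the most abundant metallothionein gene in every library. Levels are CPM with TMM scaling over all 24 libraries. In untreated AID-DIvA cells its level was 397, 451 and 458 CPM in the WT replicates and 377, 369 and 421 CPM in the ID3-KO replicates. After treatment and recovery it was 803, 744 and 654 CPM in WT and 594, 567 and 533 CPM in ID3-KO cells. Both recovered groups lay above both untreated groups without overlap. In untreated U2OS cells the level was 174, 120 and 116 CPM in WT and 124, 128 and 124 CPM in ID3-KO cells, and replicate 1 of WT, the library that stood apart, was the highest. Mocetinostat-treated U2OS cells had 342, 325 and 367 CPM in WT and 333, 246 and 283 CPM in ID3-KO cells. Ordered by mean, the groups ran from recovered WT AID-DIvA (734 ± 75.0 CPM, SD, n = 3) through recovered ID3-KO AID-DIvA, untreated WT and ID3-KO AID-DIvA, treated WT and ID3-KO U2OS and untreated WT U2OS to untreated ID3-KO U2OS (125 ± 2.44 CPM, SD, n = 3). Neighbours in that order overlapped between the untreated AID-DIvA groups, between the treated U2OS groups and between the untreated U2OS groups.

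MT1E was second in abundance. Its level was 122, 141 and 145 CPM in untreated WT AID-DIvA cells and 152, 144 and 163 CPM in untreated ID3-KO AID-DIvA cells. Recovered cells had 146, 149 and 153 CPM in WT and 166, 152 and 160 CPM in ID3-KO. The 12 AID-DIvA libraries thus spanned a narrow range compared with MT2A. Untreated U2OS cells had 65.0, 37.6 and 37.4 CPM in WT and 52.2, 68.0 and 61.5 CPM in ID3-KO, again with WT replicate 1 apart from replicates 2 and 3. Treated U2OS cells had 65.9, 67.0 and 68.7 CPM in WT and 97.7, 77.5 and 77.5 CPM in ID3-KO. All AID-DIvA libraries lay above all U2OS libraries. By mean, MT1E was highest in recovered ID3-KO AID-DIvA cells (159 ± 7.13 CPM, SD, n = 3) and lowest in untreated WT U2OS cells (46.7 ± 15.9 CPM, SD, n = 3), and neighbours in the order overlapped between recovered and untreated ID3-KO AID-DIvA cells, between untreated ID3-KO and recovered WT AID-DIvA cells, between treated WT and untreated ID3-KO U2OS cells and between the untreated U2OS groups.

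MT1X was the least abundant of the expressed members by these counts, which may miss fragments of its shared exons. It had 10.3, 11.4 and 10.4 CPM in untreated WT and 9.33, 13.3 and 10.5 CPM in untreated ID3-KO AID-DIvA cells. Recovered AID-DIvA cells had 14.4, 14.7 and 12.6 CPM in WT and 14.8, 12.9 and 14.9 CPM in ID3-KO. WT groups did not overlap, while the highest untreated ID3-KO library lay above the lowest recovered one. In U2OS cells the untreated libraries held 6.01, 3.66 and 3.15 CPM in WT and 2.97, 3.56 and 3.78 CPM in ID3-KO. The treated ones held 18.3, 19.6 and 20.8 CPM in WT and 15.7, 13.9 and 14.7 CPM in ID3-KO. Treated WT U2OS cells had the highest mean of all groups (19.6 ± 1.26 CPM, SD, n = 3) and lay above every other group, whereas for MT2A and MT1E the highest groups were AID-DIvA. Untreated ID3-KO U2OS cells had the lowest mean (3.43 ± 0.420 CPM, SD, n = 3). Between treated WT U2OS and the untreated U2OS groups the 5 other groups followed with overlap between neighbours.

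Per kilobase of annotated exon, untreated WT AID-DIvA cells had 335 ± 25.9 CPM per kb of MT2A, 129 ± 11.4 of MT1E and 6.02 ± 0.350 of MT1X (SD, n = 3). In treated WT U2OS cells these levels per kilobase were 265 ± 16.3, 63.9 ± 1.37 and 11.05 ± 0.708. The order of the 3 genes was thus the same on that scale, although the MT1X level may be understated through its shared exons. Since the annotation counts the whole span of MT2A (1299 bases) and MT1X (1773 bases), introns included, as exonic, the levels per kilobase of these genes are lower than over the mature transcript.

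**Figure D2:**
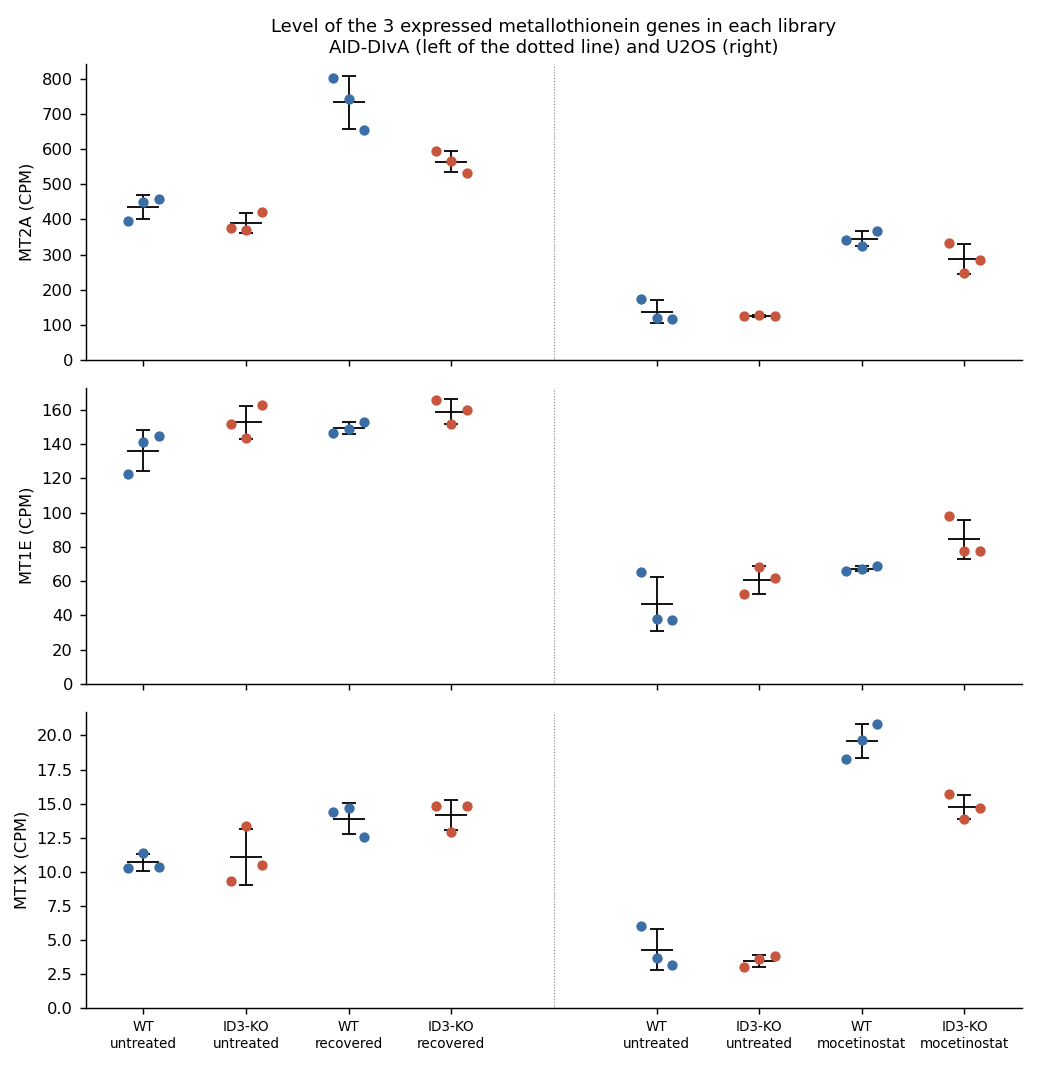
Level in CPM of MT2A, MT1E and MT1X in each of the 24 libraries (points; WT blue, ID3-KO red), with the mean and SD of each group of 3 (black). Mean MT2A and MT1X are higher in treated than in untreated cells, with overlap for MT1X in ID3-KO AID-DIvA cells, and MT1X moves most in U2OS, where it went from at most 6.01 CPM in untreated to at least 13.9 CPM in treated libraries.

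The other 5 members were at or under 3 counts in every library. MT1M had 0 counts in all 24 libraries, MT1A 1 count in 1 library, MT1F 2 counts in 1 library, MT1H 3 counts over 3 libraries and MT1G 6 counts over 5 libraries. A count of 0 allows up to 3 counts, which is 0.0792 CPM in the shallowest library and 0.0390 CPM in the deepest. No fold change is given for these genes, which passed no filter on low counts, and the tests cover only MT2A, MT1E and MT1X. Together the 5 genes had 12 counts, against 505209 of MT2A, 144336 of MT1E and 15874 of MT1X. Counts were strand-specific: 99.96% of MT2A counts lay on the strand that the library kit assigns to the transcript. MT3 and MT4, the brain and squamous epithelial forms, had 0 counts. The intronless gene MT1HL1 on chromosome 1 reached 26 counts in a library and 268 in all, but 0 of them lay on its sense strand, and the pseudogene MT1L had 85 counts of which 9.41% were on the sense strand.

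After treatment and recovery, MT2A was 1.70-fold higher in WT AID-DIvA cells (log2 fold change 0.76 ± 0.07, SE, edgeR adjusted p = 7.3e-06) and 1.45-fold higher in ID3-KO AID-DIvA cells (0.54 ± 0.07, edgeR adjusted p = 2.2e-04). MT1X rose by 0.39 ± 0.08 on the log2 scale in WT cells (edgeR adjusted p = 0.0010). Here and throughout, p-values come from the quasi-likelihood test of edgeR, adjusted by Benjamini-Hochberg over all genes tested, and called means an adjusted p under 0.05. In ID3-KO cells the MT1X difference was 0.36 ± 0.13 (edgeR adjusted p = 0.048), and without recovered ID3-KO replicate 2 or 3, or untreated ID3-KO replicate 1 or 3, the adjusted p lay between 0.062 and 0.16. MT1E did not pass in either genotype, at 0.14 ± 0.06 in WT (edgeR adjusted p = 0.052, 95% interval 0.022 to 0.26, and 0.18 with 0.040 without untreated WT replicate 3) and 0.06 ± 0.07 in ID3-KO cells (edgeR adjusted p = 0.52, 95% interval -0.090 to 0.21). Thus 2 of the 3 tested members were called higher and 0 lower in WT cells, where 23.9% of 20289 tested genes were called higher and 23% lower. In ID3-KO cells 2 members were called higher and 0 lower, against 20.2% of 20362 genes higher and 19.9% lower. In bulk RNA a change in the number of cells of a type and a change in RNA per cell cannot be told apart.

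Before recovery, in U2OS cells, the same members had larger fold changes. MT1X was 4.598-fold higher in treated WT cells (log2 fold change 2.20 ± 0.22, edgeR adjusted p = 1.5e-04) and 4.30-fold higher in treated ID3-KO cells (2.10 ± 0.09, edgeR adjusted p = 1.5e-15). For MT2A the increase was 2.54-fold in WT (1.34 ± 0.16, edgeR adjusted p = 3.4e-04) and 2.30-fold in ID3-KO cells (1.20 ± 0.09, edgeR adjusted p = 8.2e-08). MT1E rose in ID3-KO cells by 0.48 ± 0.13 (edgeR adjusted p = 0.014), a call lost without untreated replicate 3 (0.057) or treated replicate 2 (0.074), and its value in WT cells was 0.53 ± 0.21 (edgeR adjusted p = 0.068, 95% interval 0.046 to 1.02). This MT1E value passed by DESeq2 (adjusted p = 0.0432), with all 12 U2OS libraries in 1 edgeR fit (adjusted p = 0.0217) and with the replicate block (adjusted p = 0.0424). In WT cells 2 members were called higher and 0 lower, where 26% of 21797 genes were called higher and 22.9% lower. In ID3-KO cells 3 members were called higher and 0 lower, against 35.8% of 21176 genes higher and 34% lower. The WT values rest in part on untreated replicate 1, which had the highest level of all 3 members in its group. Without it MT1E was 0.85 higher (edgeR adjusted p = 2.1e-23), MT2A 1.55 higher (edgeR adjusted p = 3.0e-32) and MT1X 2.52 higher (edgeR adjusted p = 3.0e-30). The number of all genes called shifted too: leaving out each library in turn gave 8057 to 14888, against 10653 with all libraries.

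The responses of the 2 settings, U2OS before recovery minus AID-DIvA after recovery, were compared within each genotype over 12 libraries. MT1X responded more in U2OS cells before recovery, by 1.82 ± 0.24 in WT (edgeR adjusted p = 4.4e-05) and 1.76 ± 0.17 in ID3-KO cells (edgeR adjusted p = 5.8e-08). The MT2A response was larger by 0.59 ± 0.19 in WT (edgeR adjusted p = 0.024, but 0.051 to 0.069 without recovered WT AID-DIvA replicate 3, untreated WT AID-DIvA replicate 2 or 3, untreated WT U2OS replicate 2 or 3 or treated WT U2OS replicate 3) and by 0.67 ± 0.12 in ID3-KO cells (edgeR adjusted p = 9.8e-05). That of MT1E was larger by 0.43 ± 0.13 in ID3-KO cells (edgeR adjusted p = 0.013), and in WT cells the difference was 0.40 ± 0.23 (edgeR adjusted p = 0.19, 95% interval -0.10 to 0.90). So 2 members in WT and 3 in ID3-KO cells were called higher and 0 lower, against 21.7% of genes higher and 20.5% lower in WT and 27.7% higher and 24.8% lower in ID3-KO cells. Without untreated WT U2OS replicate 1, the WT differences were 0.72 for MT1E (edgeR adjusted p = 2.4e-08), 0.80 for MT2A (edgeR adjusted p = 8.3e-05) and 2.15 for MT1X (edgeR adjusted p = 3.0e-12). Over all genes in WT cells, 8079 to 11829 were called with each library left out in turn, against 9377 with all libraries. Untreated levels differed too, since MT2A, MT1E and MT1X in every untreated AID-DIvA library exceeded those in every untreated U2OS library. Cell line and stage cannot be told apart in these differences, which rest on the titles for the AID-DIvA response: by the treatment entry of the labels that response would have the opposite sign.

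ID3-KO cells had lower MT2A than WT cells in recovered AID-DIvA cells, at -0.39 ± 0.07 (edgeR adjusted p = 0.0030), with no overlap between groups. MT1E differed by 0.07 ± 0.06 there (edgeR adjusted p = 0.42, 95% interval -0.056 to 0.20) and MT1X by 0.01 ± 0.09 (edgeR adjusted p = 0.94, 95% interval -0.20 to 0.22). In untreated AID-DIvA cells MT2A was lower by a smaller amount, -0.18 ± 0.06 (edgeR adjusted p = 0.030), with overlapping groups, and the call was lost when all 12 AID-DIvA libraries shared 1 fit (edgeR adjusted p = 0.072) and without untreated WT replicate 2 or 3 or untreated ID3-KO replicate 1 or 2 (0.093 to 0.17). For MT1E the value was 0.14 ± 0.06 (edgeR adjusted p = 0.093), and 0.19 without untreated ID3-KO replicate 2 (0.025). MT1X differed by 0.03 ± 0.11 (edgeR adjusted p = 0.84, 95% interval -0.20 to 0.26). Thus 0 members were called higher and 1 lower in each of these states. Among all genes 12.6% were called higher and 11.1% lower in recovered cells, and 18.6% higher and 18.1% lower in untreated cells. By the treatment entry of the labels, the untreated and recovered values given here would change places.

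In treated U2OS cells the members moved in opposite directions between genotypes. MT1E was higher in ID3-KO cells, by 0.33 ± 0.07 (edgeR adjusted p = 9.0e-04), MT1X lower, at -0.41 ± 0.06 (edgeR adjusted p = 8.5e-06), and the groups overlapped for neither gene. MT2A had a log2 fold change of -0.26 ± 0.11 (edgeR adjusted p = 0.12, 95% interval -0.53 to 0.0047), which passed without treated ID3-KO replicate 1 (-0.38, edgeR adjusted p = 4.1e-09). Hence 1 member was called higher and 1 lower, against 19% of 21800 genes higher and 19% lower. With all 12 U2OS libraries in 1 fit neither call held, at an edgeR adjusted p = 0.25 for MT1E and 0.098 for MT1X. In untreated U2OS cells 0 of the 3 members were called by edgeR, 0 had an unadjusted p under 0.05 and DESeq2 called 0, while 6.56% of 20621 genes were called higher and 8.63% lower. The values were -0.13 ± 0.15 for MT2A, 0.37 ± 0.22 for MT1E and -0.32 ± 0.24 for MT1X. Without untreated WT replicate 1, MT1E was 0.69 higher in ID3-KO cells (edgeR adjusted p = 0.019), MT2A 0.09 (edgeR adjusted p = 0.053) and MT1X 0.01 (edgeR adjusted p = 0.97). Leaving out each library in turn gave 1266 to 8627 called genes between untreated U2OS genotypes, against 3132 with all libraries.

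Whether the response to treatment depended on genotype was tested with an interaction term over the 12 libraries of a cell line label. None of the 3 members was called in AID-DIvA or in U2OS cells by edgeR, with 0 at an unadjusted p under 0.05 and 0 called by DESeq2 in either. The interaction of MT2A was -0.22 ± 0.11 in AID-DIvA cells (edgeR adjusted p = 0.44, 95% interval -0.44 to 0.0065) and -0.14 ± 0.19 in U2OS cells (edgeR adjusted p = 0.82, 95% interval -0.55 to 0.28). For MT1X in U2OS cells it was -0.09 ± 0.25 (edgeR adjusted p = 0.91), and -0.42 without untreated WT replicate 1 (edgeR adjusted p = 0.041). With each U2OS library left out in turn, 257 to 2091 genes were called for the interaction, against 488 with all libraries. Interactions were called for few genes, 0.762% higher and 0.451% lower in AID-DIvA cells and 1.1% higher and 1.06% lower in U2OS cells.

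**Figure D3:**
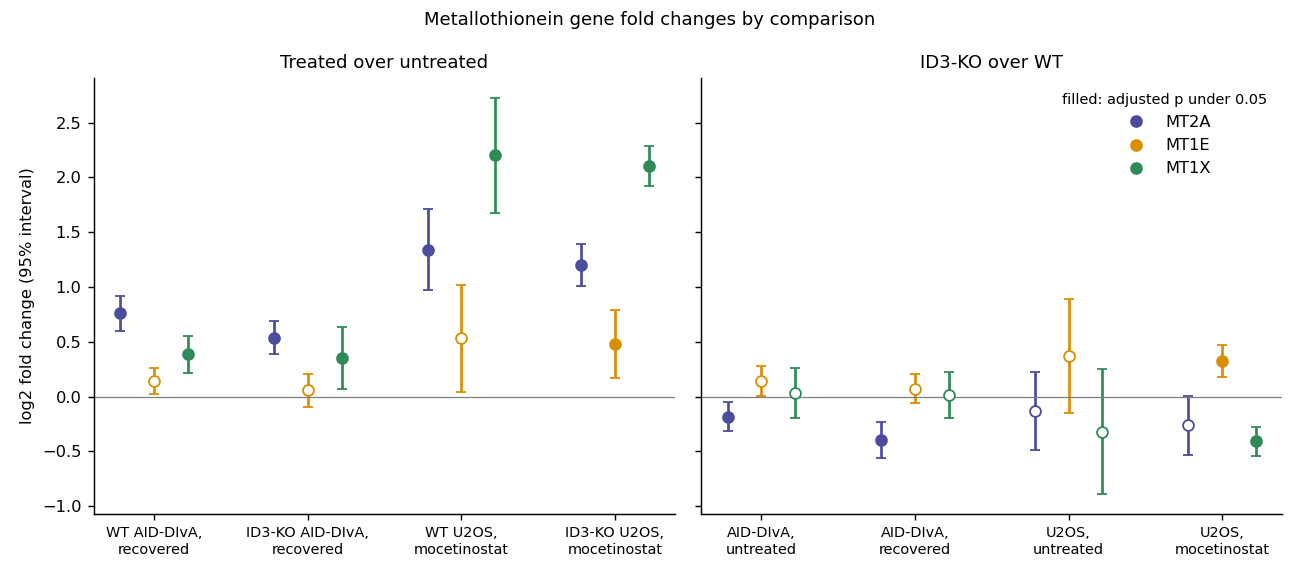
Log2 fold changes with 95% intervals, from the SE and the degrees of freedom of the edgeR test, of MT2A, MT1E and MT1X, treated over untreated (left) and ID3-KO over WT (right), with filled points where the adjusted p was under 0.05. In treated U2OS cells MT1X rose by 2.20 and 2.10, while genotype differences ran from -0.41 to 0.37.

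Because the genes share a library, the number of MT2A counts per MT1E count needs no scaling between libraries. This ratio was examined after the levels had been seen. In untreated AID-DIvA cells it was 3.17 to 3.24 in WT and 2.48 to 2.59 in ID3-KO cells. In recovered AID-DIvA cells it was 4.27 to 5.49 in WT and 3.34 to 3.74 in ID3-KO cells. The U2OS libraries had 2.68 to 3.19 in WT and 1.88 to 2.37 in ID3-KO cells when untreated, and 4.85 to 5.34 in WT and 3.17 to 3.65 in ID3-KO cells when treated. Within each of the 4 states the ID3-KO ratios were therefore below the WT ratios without overlap. The treated ratio lay above the untreated ratio in both genotypes of both lines. How many other gene pairs part the groups in this way was not examined. On the log2 scale the ID3-KO over WT difference was -0.33 ± 0.02 and -0.46 ± 0.12 in untreated and recovered AID-DIvA cells and -0.52 ± 0.13 and -0.59 ± 0.07 in untreated and treated U2OS cells (SE). Each of the 8 comparisons of this ratio had a two-sided exact permutation p = 0.1, the smallest that 3 against 3 libraries allow, so none can pass a threshold of 0.05. Untreated WT U2OS replicate 1, apart in level, had a ratio of 2.68 against 3.19 and 3.11 in the other replicates. The WT ratio in that state still exceeded the ID3-KO ratio without it.

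MT1X made up 1.49% to 2.54% of member counts in the AID-DIvA libraries and 1.66% to 2.45% in the untreated U2OS libraries. Its share in treated U2OS libraries was 4.29% to 4.78% in WT and 3.52% to 4.12% in ID3-KO cells. These MT1X shares may be understated if fragments of its shared exons were left out. MT2A made up the largest share in all 24 libraries. Together the members held 897 ± 72.6 CPM in recovered WT AID-DIvA cells, the highest group, and 188 ± 49.7 CPM in untreated WT U2OS cells, the lowest (SD, n = 3).

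**Figure D4:**
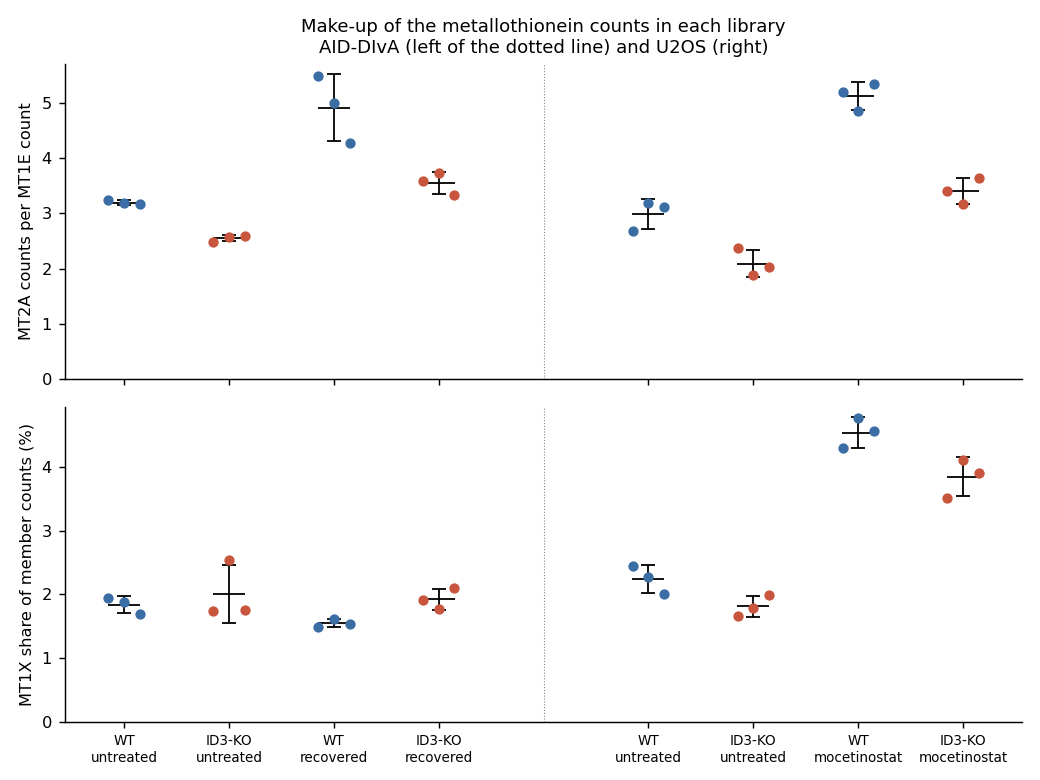
MT2A counts per MT1E count (top) and share of MT1X among member counts in percent (bottom) in each library, with the mean and SD of each group of 3. ID3-KO points lie below WT points for MT2A per MT1E in all 4 states, and the MT1X share is highest in treated U2OS cells, at 3.52% to 4.78%.

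Genes that handle zinc and copper or regulate metallothioneins were described from fixed lists, chosen with earlier results of these data known. Counts in each list are read against the shares of all genes called in the same comparison. With treatment these were 26% higher and 22.9% lower in WT U2OS, 35.8% and 34% in ID3-KO U2OS, 23.9% and 23% in WT AID-DIvA and 20.2% and 19.9% in ID3-KO AID-DIvA cells. MTF1, the zinc sensor that drives metallothionein transcription, rose in treated WT U2OS cells (log2 fold change 0.63 ± 0.16, edgeR adjusted p = 0.013) and in treated ID3-KO U2OS cells (0.43 ± 0.05, edgeR adjusted p = 6.2e-08), by 0.18 ± 0.05 in recovered WT AID-DIvA cells (edgeR adjusted p = 0.011), and was not called in recovered ID3-KO AID-DIvA cells (0.10 ± 0.07, edgeR adjusted p = 0.23). KEAP1, the repressor of the oxidative stress factor NRF2, fell in treated U2OS cells by 1.38 ± 0.12 in WT (edgeR adjusted p = 8.0e-05) and 1.52 ± 0.05 in ID3-KO (edgeR adjusted p = 4.85e-17). Of the 8 regulators, 1 rose and 4 fell in WT U2OS cells, and 1 rose and 5 fell in ID3-KO U2OS cells. In AID-DIvA cells 2 rose and 3 fell in WT and 1 rose and 2 fell in ID3-KO. The medians over the list were -0.37, -0.52, -0.09 and -0.11 in the same order, while the medians over all genes tested lay between -0.02 and 0.01.

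Zinc exporters move zinc out of the cytosol, and SLC30A1, the exporter of the plasma membrane, is itself a target of MTF1. It rose in treated WT U2OS cells (0.69 ± 0.07, edgeR adjusted p = 1.1e-04), treated ID3-KO U2OS cells (0.82 ± 0.06, edgeR adjusted p = 9.45e-11) and recovered WT AID-DIvA cells (0.29 ± 0.06, edgeR adjusted p = 7.9e-04), while recovered ID3-KO AID-DIvA cells had 0.07 ± 0.13 (edgeR adjusted p = 0.72). SLC30A3 had the largest change of the exporters, 1.88 ± 0.09 in WT and 1.78 ± 0.06 in ID3-KO U2OS cells (edgeR adjusted p = 4.4e-06 and 1.4e-17). Of the 7 exporters tested of 10, 3 rose and 1 fell in WT U2OS, 5 rose and 1 fell in ID3-KO U2OS, 2 rose and 2 fell in WT AID-DIvA and 1 rose and 4 fell in ID3-KO AID-DIvA cells. Among the importers, SLC39A8 rose by 1.13 ± 0.09 in treated WT U2OS cells (edgeR adjusted p = 4.3e-05) and by 1.25 ± 0.06 in treated ID3-KO U2OS cells (edgeR adjusted p = 3.3e-14). Of the 14 importers, 5 rose and 2 fell in WT U2OS cells. Of the 13 tested in the other comparisons, 7 rose and 3 fell in ID3-KO U2OS cells, and 4 rose and 1 fell in each AID-DIvA genotype. The copper-exporting ATPases ATP7A and ATP7B rose in treated WT U2OS cells by 1.08 ± 0.18 and 1.31 ± 0.12 (edgeR adjusted p = 0.0020 and 7.85e-05). Of 11 copper handling genes, 4 rose and 2 fell in WT U2OS, 8 rose and 2 fell in ID3-KO U2OS, 4 rose and 0 fell in WT AID-DIvA and 5 rose and 1 fell in ID3-KO AID-DIvA cells.

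Lists for the other known inducers of metallothioneins were described in the same way. FKBP5, a glucocorticoid receptor target, rose by 1.70 ± 0.11 in treated WT U2OS cells and 1.84 ± 0.05 in treated ID3-KO U2OS cells (edgeR adjusted p = 1.7e-05 and 3.8e-19), and of 8 glucocorticoid targets 6 rose and 1 fell in WT U2OS cells and 6 rose and 0 fell in ID3-KO U2OS cells. In WT AID-DIvA cells 1 rose and 2 fell of the 7 tested, and in ID3-KO AID-DIvA cells 1 rose and 3 fell of 8. The heme oxygenase gene HMOX1, which NRF2 and heavy metals induce, rose in recovered AID-DIvA cells by 1.63 ± 0.06 in WT and 1.41 ± 0.08 in ID3-KO (edgeR adjusted p = 1.6e-10 and 1.3e-06) and in treated U2OS cells by 0.60 ± 0.15 in WT and 0.90 ± 0.06 in ID3-KO (edgeR adjusted p = 0.013 and 6.4e-11), while NQO1, another NRF2 target, fell in all 4 treatment comparisons. Of the 8 NRF2 targets, 6 rose and 2 fell in WT U2OS, 6 rose and 1 fell in ID3-KO U2OS, and 1 rose and 5 fell in each AID-DIvA genotype. Of the 7 heat shock chaperones, 0 rose in AID-DIvA cells, while 5 fell in WT and 3 in ID3-KO. In U2OS cells 3 rose and 1 fell in WT and 5 rose and 2 fell in ID3-KO. Their part in the metallothionein differences was not tested.

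**Figure D5:**
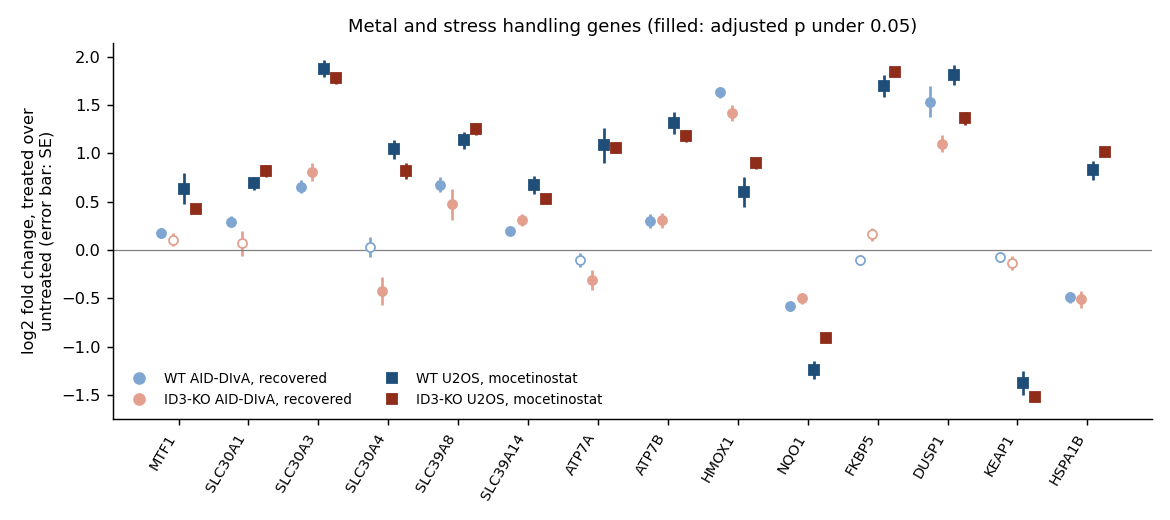
Log2 fold changes (treated over untreated, with SE) of 14 genes of the fixed lists in the 4 treatment comparisons, filled where the adjusted p was under 0.05. SLC30A1 and MTF1 rise in 3 of the 4 comparisons, and SLC30A3 reaches 1.88 in treated WT U2OS cells.

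Between genotypes, SLC30A1 was higher in ID3-KO cells in 3 of the 4 states, by 0.34 in untreated AID-DIvA cells (edgeR adjusted p = 1.0e-04), 0.38 in untreated U2OS cells (edgeR adjusted p = 0.010) and 0.52 in treated U2OS cells (edgeR adjusted p = 3.4e-08), with 0.13 in recovered AID-DIvA cells (edgeR adjusted p = 0.56). Of the exporters tested, 4 were called higher and 0 lower in untreated AID-DIvA cells and 1 and 0 in recovered AID-DIvA cells. The numbers were 1 and 0 in untreated and 3 and 1 in treated U2OS cells. HMOX1 was lower in ID3-KO cells in all 4 states, at -0.47 and -0.67 in untreated and recovered AID-DIvA cells and -0.70 and -0.39 in untreated and treated U2OS cells (edgeR adjusted p between 1.4e-06 and 0.0225). Of the 8 NRF2 targets, 1 was called higher and 4 lower in untreated AID-DIvA cells and 1 and 3 in recovered AID-DIvA cells. In U2OS cells 1 was higher and 2 lower when untreated, and 2 were higher and 1 lower when treated. MTF1 was called between genotypes in 0 of the 4 states, with edgeR adjusted p between 0.28 and 0.88. Among all genes, 18.6% were called higher and 18.1% lower in untreated and 12.6% and 11.1% in recovered AID-DIvA cells. The shares were 6.56% and 8.63% in untreated and 19% and 19% in treated U2OS cells. The untreated U2OS values include WT replicate 1, which stood apart.

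Genes within 500000 bases of the cluster were examined to see how far the change extended. Of 34 such rows, 15 were tested in each AID-DIvA treatment comparison, with 1 called higher and 4 lower in WT and 1 higher and 2 lower in ID3-KO cells. Among all genes 23.9% and 23% were called higher and lower in WT and 20.2% and 19.9% in ID3-KO AID-DIvA cells. In U2OS cells 6 of 16 rose and 2 fell in WT, where 26% of all genes rose and 22.9% fell, and 12 of 17 rose and 3 fell in ID3-KO, where 35.8% rose and 34% fell. As examples of these, GNAO1, a G protein subunit gene, rose by 1.42 in WT and 1.28 in ID3-KO U2OS cells, and HERPUD1, of the endoplasmic reticulum stress response, by 0.47 and 0.64. NUDT21, of messenger RNA processing, fell by 0.23 and 0.28.

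The genes whose levels across the 24 libraries were most like the summed level of the members, by Pearson's r of log2(CPM + 1) over 15590 genes, were UAP1 (r = 0.950), NUFIP1 (0.949), GSPT1 (0.928), HKDC1 (0.928) and CSNK2A1 (0.919). These values describe libraries that share lines, treatments and scaling. UAP1 ran from 79.5 CPM in untreated WT U2OS to 187 CPM in recovered WT AID-DIvA cells, the lowest and the highest groups of the members' sum as well. Among the members themselves r was 0.88 for MT2A with MT1E (Spearman's rho 0.88), 0.81 for MT2A with MT1X (rho 0.46) and 0.57 for MT1E with MT1X (rho 0.35).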

How the data were processed

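Stranded libraries of total RNA were made by the authors and sequenced as paired reads of 100 bases, which they aligned to hg19/GRCh37 with STAR, and they counted fragments per gene with featureCounts, whose versions are not given in the sources used here. They deposited raw counts per gene for each of the 24 libraries, from either strand and by strand, without normalization or pooling, and every count column was matched to a sample. Counts from either strand were analysed with edgeR 4.0.16 in R 4.3.3: counts were filtered with filterByExpr, scaled by TMM and fitted by robust quasi-likelihood on the 6 libraries of each pairwise comparison (12 for interactions and differences between responses), with Benjamini-Hochberg adjustment over all genes tested and a threshold of 0.05. Standard errors are the log2 fold change over the square root of F, and 95% intervals use the degrees of freedom of each gene's test. CPM levels used TMM factors over 24 libraries. DESeq2 1.42.0 was an alternative. Sequences came from GENCODE (GRCh37) and RefSeq (GRCh38), and permutation tests from scipy 1.17.1. Total counts between 37878751 and 76906266 leave counting error small for MT2A, MT1E and MT1X, and the spread of 3 replicates sets the precision.

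The genes and the gene lists were chosen with earlier results of these data known. Named genes were the 8 members, other family rows with at least 10 counts in a library, ID3, at most 3 called genes of each list per comparison with a mean of at least 1 CPM and the largest fold change, examples of the called genes within 500000 bases of the cluster with a mean of at least 1 CPM, and the 5 genes most like the summed members. MT1L, MT1P3, MT3, MT4 and the markers of cell types were named in addition, after their values were seen. MTF1, SLC30A1 and HMOX1 were followed through all treatment and genotype comparisons once named in 1. Groups followed the titles. Alternatives were other size factors, no filter and a stricter filter on counts, counts of the sense strand, a replicate block, a fold threshold, 12 libraries in 1 fit and leaving out each library. The MT2A to MT1E ratio and its alternatives were chosen after the data had been seen.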

Additional observations from a re-analysis of the deposited data

Results flagged for a closer look

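The response to mocetinostat differed between U2OS cells before recovery and AID-DIvA cells after recovery by the test of the difference itself, in edgeR with Benjamini-Hochberg adjustment. In WT cells the log2 response was larger in U2OS by 0.59 for MT2A (adjusted p = 0.024) and by 1.82 for MT1X (adjusted p = 4.4e-05). The MT2A call in WT was lost without any 1 of 6 libraries (adjusted p between 0.051 and 0.069), and without untreated WT U2OS replicate 1 the difference was 0.80. In ID3-KO cells it was larger by 0.67 for MT2A (adjusted p = 9.8e-05), 0.43 for MT1E (adjusted p = 0.013) and 1.76 for MT1X (adjusted p = 5.8e-08). Cell line and collection stage cannot be told apart in these values, and the AID-DIvA response rests on the titles, with the opposite sign by the treatment entry of the labels.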

How the results depend on the processing

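Of 528 alternative values for single members, 470 kept direction and side of the threshold, 23 lost the call, 17 gained it and 18 changed sign, 17 of them on leaving out 1 library. With a log2 fold change above 1 required as well, 0 members were called in either AID-DIvA treatment comparison and between genotypes in untreated AID-DIvA, recovered AID-DIvA and treated U2OS cells, and 1 in each difference between responses, by the construction of the rule. In ID3-KO AID-DIvA cells 1 member (MT2A) was called with at least 10 counts in every library, with sense-strand counts or with the replicate block. Between genotypes in untreated AID-DIvA cells 2 were called with no filter and 0 with 12 libraries in 1 fit, and in treated U2OS cells 0 with 12 libraries in 1 fit. The MT1X difference between genotypes in recovered AID-DIvA cells became -3.75e-06 with 12 libraries in 1 fit. The cause was not tested. Leaving out each library in turn gave 2 to 3, 1 to 2, 2 to 3 and 2 to 3 called members in the treatment comparisons (WT and ID3-KO AID-DIvA, WT and ID3-KO U2OS), 0 to 1, 0 to 1, 1 to 1 and 2 to 3 between genotypes (untreated AID-DIvA, untreated U2OS, recovered AID-DIvA, treated U2OS), 0 to 0 and 0 to 1 for the interactions (AID-DIvA, U2OS) and 1 to 3 and 3 to 3 for the differences between responses (WT, ID3-KO). Signs changed in that way for MT1X between genotypes in untreated AID-DIvA (-0.13 to 0.15), recovered AID-DIvA (-0.052 to 0.079) and untreated U2OS cells (-0.49 to 0.0069), for MT2A in untreated U2OS cells (-0.23 to 0.085), and for the interactions of MT1X in AID-DIvA (-0.13 to 0.14) and U2OS (-0.42 to 0.082) and of MT1E in U2OS (-0.37 to 0.093), none of which was called with all libraries. The log2 MT2A to MT1E ratio stayed between -0.64 and -0.31 for genotype and between 0.44 and 0.83 for treatment over 56 alternatives. By Spearman's rho, 2 of the 5 genes most like the members were the same.

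Same-numbered libraries did not deviate together, with correlations of their deviations between -0.381 and 0.258, so the replicate numbers were not taken to pair samples. With the replicate block, MT1X in ID3-KO AID-DIvA (edgeR adjusted p = 0.076) and MT1E in ID3-KO U2OS cells (edgeR adjusted p = 0.16) lost their calls, and MT1E in WT AID-DIvA (0.040), MT1E in WT U2OS (0.042) and MT2A between genotypes in treated U2OS cells (7.9e-08) gained one.

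MT1A, MT1F, MT1G, MT1H and MT1M were too low for any test at this depth. The AID-DIvA directions by treatment, and the naming of AID-DIvA groups as untreated or recovered, rest on the titles. Ratios over 3 against 3 libraries cannot reach a permutation p below 0.1.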
